A study of Mus musculus with 21 samples.

Results

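The genes described here are 7 mouse genes whose products write, erase or read DNA methylation and histone marks: Dnmt3b, Atrx, Eed, Kdm5c, Kmt2a, Kmt2c and Nsd1. Members were all listed single-nucleotide variants (SNVs) annotated to one of these genes and not called intergenic. They comprised 35 of 19181 distinct sites and 207 of 91523 calls, a call being one site in one library. Embryonic stem cell (ESC) lists held 7 of the 35 sites in 6 of the genes, among 4358 ESC sites in all. Tumour lists held the other 28 in 4 of the genes, among 15030 tumour sites, and no member site appeared in both kinds of list. This is not particular to these genes, since few sites of any gene were shared. The 4358 ESC and 15030 tumour sites together made 19181 distinct sites. The genes were chosen from the calls themselves, so the presence of a call is a description and was not tested.

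DNA methylation is laid down de novo by DNMT3 enzymes, and it is set against histone methylation that other enzymes write on the same chromatin. Methyl groups on lysine 4 of histone H3 keep DNMT3 enzymes away from promoters, while methylated lysine 36 attracts them. Mouse ESCs lose much of their DNA methylation when the MEK kinase is inhibited, which is known to lower de novo methyltransferase levels.

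The study asked how ESC culture media affect genome stability. The 10 ESC libraries, 2 per medium, were compared with 1 mouse embryonic fibroblast (MEF) sample, and 8 tumours with 1 wild-type blood sample; all samples carried the strain label C57BL6X129S6F1. The 2iL medium was N2B27 with 1000 IU leukaemia inhibitory factor (LIF), 3 μM of the GSK3 inhibitor CHIR99021 and 1 μM of the MEK inhibitor PD0325901 on feeder cells, and 2iL-F was the same without feeders. A2iL replaced PD0325901 by 1.5 μM of the Src inhibitor CGP77675, and LCDM replaced it by 2 μM Dim and 2 μM Mih, both on feeders with the same LIF and CHIR99021. SL was serum medium, with 15% fetal bovine serum and 1000 IU LIF on feeders. The 2 libraries of each medium are labelled 3 and 5, and nothing says that they came from separate cultures, so the spread between them may be technical. Tumours came from mice made from ESCs by tetraploid complementation: 3 labelled A2iL-P9, 1 each 2iL-P9 and 2iL-F-P9, 2 LCDM-P9 and 1 A2iL-P14, with P9 and P14 left unexplained by the labels. The labels give neither the tissue nor the cell makeup of the tumours.

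An ESC list held 1762 to 1858 calls at a median depth of 54 to 72 reads, with no dbSNP identifier. A tumour list held 3634 to 10325 calls at a median depth of 28 to 39 reads, and 94.96 to 97.55% of its calls had an identifier in dbSNP, the catalogue of known variants. Tumour calls of one list lay as close as 1 bp, while ESC calls lay at least 10017 bp apart, so the 2 kinds of list were not compared in number. One tumour, LCDM-P9 replicate 2, stood apart: it had the smallest list, and its dbSNP calls had a median alternative-allele fraction of 0.917, against 0.433 to 0.440 in the other 7 tumours. Wilson 95% intervals and upper limits for 0 control reads (3 reads over the control depth) cover counting error only, and reads are not independent molecules.

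Dnmt3b, a de novo DNA methyltransferase of the early embryo and ESCs, carried the one missense change among the 7 ESC sites. It lay at chr2:153672276 (mm10), 22.865 kb from the lower-coordinate end of the gene, and replaced lysine by arginine: K383R on 4 annotated transcripts (coding change A1148G) and K403R on 5 others (A1208G). The exon is number 10, 11 or 12 by transcript. The site lay outside repeats and segmental duplications, and base quality was 35 to 37. It was among the 636 ESC sites (14.6% of 4358) listed in all 10 ESC libraries. Like most ESC sites, it was in no tumour list.

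Alternative reads at the Dnmt3b site numbered 21 of 108 (fraction 0.194) and 19 of 113 (0.168) in the 2iL libraries, and 23 of 88 (0.261) and 24 of 131 (0.183) in the 2iL-F libraries. In media without the MEK inhibitor they numbered 29 of 129 (0.225) and 28 of 130 (0.215) in SL, and 26 of 140 (0.186) and 33 of 132 (0.250) in A2iL. The LCDM libraries had 19 of 86 (0.221) and 24 of 105 (0.229). The MEF control had 0 of 91 alternative reads, which allows a share of up to 3.297%; the sites were called against this control, so its low share is a condition of the list. Pooled over libraries, 246 of 1162 reads carried the change, a fraction of 0.212 (Wilson 95% interval 0.189 to 0.236).

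**Figure D1:**
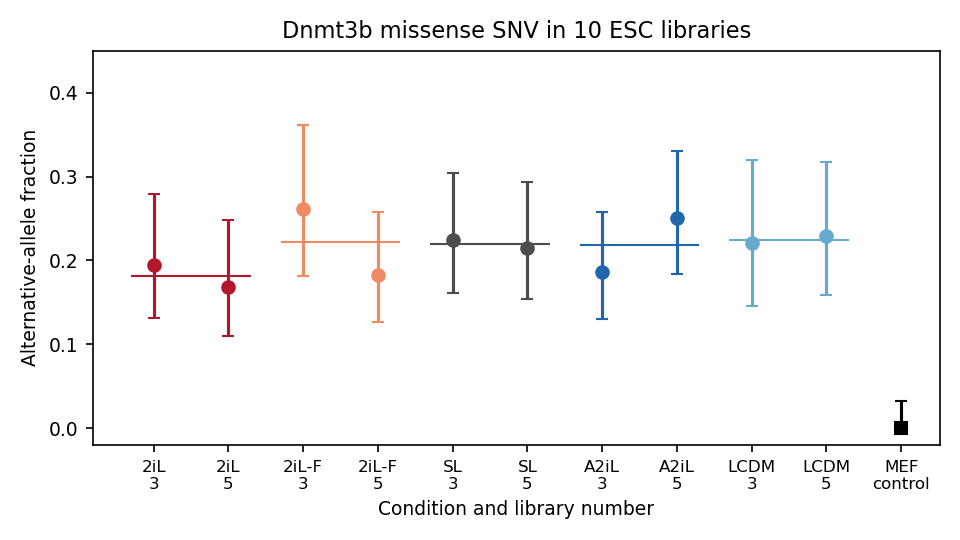
Alternative-allele fraction of the Dnmt3b missense SNV (vertical axis, no unit) in each ESC library, by medium and label number. Points are libraries with Wilson 95% intervals, horizontal lines are means of 2 libraries, and the square is the MEF control at 0 with its upper limit; the 10 libraries lie between 0.168 and 0.261.

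No difference in the Dnmt3b fraction among the media was detected. The 2iL libraries averaged 0.181 ± 0.0186 and the 2iL-F libraries 0.222 ± 0.0553, against means of 0.220 ± 0.00666 for SL, 0.218 ± 0.0455 for A2iL and 0.225 ± 0.00540 for LCDM (SD, n = 2 each). The SD between the 10 libraries was 0.0301, against 0.0384 for read sampling alone at the pooled fraction. All 10 Wilson intervals held the range from 0.184 to 0.248. With the F statistic set against all 945 partitions of the libraries into pairs, F was 0.588 with an exact permutation p = 0.679 (adjusted p = 0.860 by Benjamini-Hochberg over the 636 ESC sites called in all libraries). None of those sites passed the adjusted threshold (0.0%), and 69 of them (10.8%) had an unadjusted p under 0.05. The smallest p that this test can give is 0.00106, too large for a single site to pass adjustment over 636.

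Libraries grown with the MEK inhibitor averaged a Dnmt3b fraction of 0.202 ± 0.0412 (SD, n = 4), against 0.221 ± 0.0209 in the other media (n = 6). The difference of −0.0191 (SE 0.0223) gave p = 0.338 in an exact two-sided permutation test over 210 splits, with an adjusted p of 0.874. Of the 4 libraries with the inhibitor, 3 were below the median of all 10 and 2 were below every library without it. Over the same 636 sites, none passed after adjustment (0.0%) and 38 (5.97%) had an unadjusted p under 0.05. With 210 splits the smallest p is 0.00476, so no single site could pass adjustment here either. Without 2iL-F replicate 3 the difference was −0.0390 with an unadjusted exact permutation p of 0.0357, the lowest of all alternatives. Its adjusted p was 0.931, but with 84 splits the smallest p is 0.0119, so adjustment could not decide on a single site. Leaving out any other single library gave unadjusted exact permutation p-values of 0.222 to 0.714. Feeder cells were present in every medium but 2iL-F, so the 4 libraries with the inhibitor include 2 with feeders and 2 without, and the share of feeder DNA was not measured.

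Among ESC sites shared by all 10 libraries, the Dnmt3b site sat at a low to middle fraction. The median of mean fractions over these 636 sites was 0.325, and 184 of them (28.9%) were below the Dnmt3b mean of 0.213. Of the 103 protein-changing sites among them, 76 lay outside repeats and duplications and 73 of those had no alternative read in the control. The mean fractions of the 76 ranged from 0.0603 to 0.919 with a median of 0.338, and 24 were below Dnmt3b.

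Kdm5c, an X-linked demethylase of histone H3 lysine 4, had the other recurrent ESC site: an intronic C-to-T change at chrX:152240382, listed in 8 of 10 libraries. All reads were alternative in both 2iL libraries (3 of 3 each), both 2iL-F libraries (6 of 6 and 2 of 2), SL replicate 3 (2 of 2) and LCDM replicate 3 (2 of 2). SL replicate 5 had 4 of 5 and A2iL replicate 5 had 7 of 8. No call was listed for A2iL replicate 3 or LCDM replicate 5, and neither list held another call within 10 kb. Pooled, 29 of 31 reads were alternative (0.935, interval 0.793 to 0.982), against 0 of 11 in MEF, which allows up to 27.3%. At 2 to 8 reads a library, the absence of a call in the remaining libraries cannot be read as absence of the variant, and the media were not compared.

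A pooled fraction this high was found at 7 of 72 ESC sites on the X chromosome (9.72% at 0.8 or above) and at 49 of 4282 autosomal sites (1.14%). The medians were 0.250 on X and 0.213 on autosomes. The sex of the ESC lines was not given in the labels used here. The Atrx site, also on X, had a fraction of 0.250.

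The remaining 5 ESC sites were each listed in a single library on few reads. Atrx, a chromatin remodeller that deposits histone H3.3 with Daxx, had an intronic G-to-T change at chrX:105888925 with 2 of 8 reads in LCDM replicate 3, against 0 of 12 in MEF. Eed, the Polycomb repressive complex subunit that reads methylated lysine 27 of histone H3, had an intronic T-to-C change at chr7:89964990 with 3 of 22 reads in 2iL-F replicate 5, against 0 of 25 in MEF. Kmt2a, a methyltransferase of histone H3 lysine 4 known from its translocations in leukaemia, had an intronic C-to-A change at chr9:44809266 with 3 of 12 reads in 2iL replicate 5, against 0 of 16 in MEF.

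These 3 fractions had Wilson 95% intervals that reached down to 0.0715 for Atrx, 0.0475 for Eed and 0.0889 for Kmt2a. Kmt2c, the related methyltransferase that acts at enhancers, had 2 sites. The first was synonymous, Q1781Q in exon 36 (chr5:25315768), with 2 of 7 reads in 2iL replicate 3 against 0 of 13 in MEF. The second was an intronic A-to-C change (chr5:25350036) with 2 of 6 reads in A2iL replicate 3 against 0 of 11 in MEF.

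Both Kmt2c sites and the Eed site lay in annotated simple or low-complexity repeats, whereas the Atrx and Kmt2a sites did not. Base quality was 33 at the Eed and Kmt2a sites and 37 at the other 3. Of all 1465 ESC sites listed in 1 library, 25.9% lay in repeats and 36.04% had a depth under 20 reads, with a median depth of 32. The 5 members had 6 to 22 reads, and the 11 to 25 MEF reads at these sites allow alternative shares of up to 12.0 to 27.3%. Nsd1 had no ESC site.

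**Figure D2:**
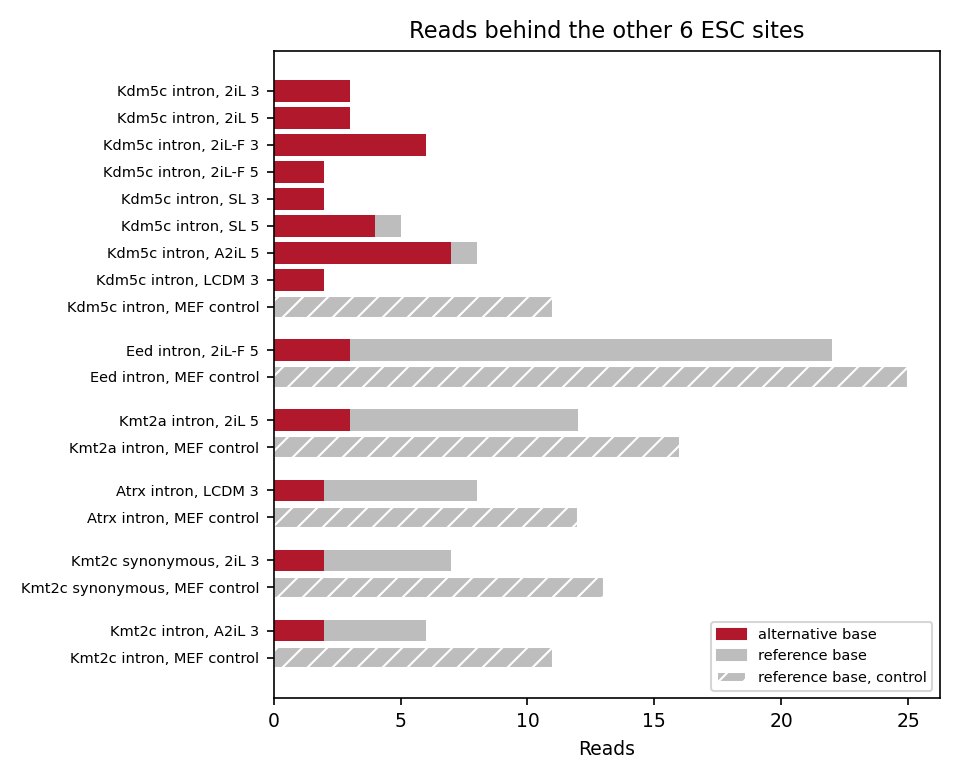
Reads behind the 13 ESC calls outside Dnmt3b (horizontal axis, reads), split into alternative (red) and reference (grey) bases, with the MEF control (hatched) below the libraries of each site. Kdm5c reads are nearly all alternative at 2 to 8 reads a library, while the other 5 sites have 2 or 3 alternative reads, and no control bar holds one.

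In the tumours, 27 of the 28 member sites had a dbSNP identifier, and 26 of those 27 changed no amino acid. Kmt2a held 24 of the 28, Kmt2c 2, and Eed and Nsd1 1 each, while Dnmt3b, Atrx and Kdm5c had none. The 27 sites were listed in 5 to 7 of the 7 tumours other than LCDM-P9 replicate 2 and never in that tumour. It in turn held the remaining site, in Nsd1.

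Kmt2a had 24 tumour sites within 39.897 kb, or 0.308 sites per kb over the whole gene. Of the 3675 genes with a tumour site, 46, Kmt2a included, had at least as many sites, a count not scaled by gene length. There were 17 intronic and 7 exonic sites, of which 6 were synonymous and 1 missense. In 7 tumours 19 sites were listed, in 6 tumours 4 and in 5 tumours 1; the 5 sites missing somewhere had a median depth of 10 to 28 reads, against 16 to 125 at the 19 sites. Depth of the 162 calls was 7 to 153 reads and base quality 32 to 37. Transitions made up 17 sites and transversions 7; 2 sites lay in SINE repeats and none in a segmental duplication. The blood control had no alternative read at 18 sites and 1 at each of the other 6, or 6 of 1002 reads in all (0.599%, interval 0.275 to 1.30%).

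The missense site of Kmt2a was N3581D in exon 28 (coding change A10741G, chr9:44817773, rs32628915). Alternative reads numbered 6 of 11, 9 of 16 and 6 of 13 in the A2iL-P9 tumours, 15 of 30 in 2iL-P9, 8 of 13 in 2iL-F-P9, 7 of 17 in LCDM-P9 replicate 1 and 6 of 16 in A2iL-P14. Pooled, 57 of 116 reads were alternative (0.491, interval 0.402 to 0.581), against 0 of 19 in blood, which allows up to 15.8%. The 7 tumours overlapped, with fractions from 0.375 to 0.615.

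The synonymous sites of Kmt2a had pooled fractions from 0.322 to 0.467. Pooled over 7 tumours, C1152C in exon 5 had a fraction of 0.467, V1297V in exon 7 had 0.453 and E1908E in exon 21 had 0.467 (interval 0.434 to 0.501). T1619T in exon 15 had 0.359 (interval 0.312 to 0.409), T1656T in the same exon 0.348, and E3006E in exon 27 0.322 (interval 0.272 to 0.375). The first 3 were above the last 3, a difference between sites that was not tested. The 2 exonic sites of exon 15 and 2 intronic sites next to them, a stretch of 212 bp chosen after its values were seen, had mean fractions of 0.348 to 0.369.

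Over all 24 Kmt2a sites the mean fraction across tumours ran from 0.252 at chr9:44813181 to 0.510 at chr9:44834152, both intronic, with a median of 0.451. A total of 16 sites had a mean between 0.4 and 0.6 and 4 had one under 0.35. Single calls ranged from 0.115 to 0.737. A pair of intronic sites 1 bp apart differed by at most 0.032 in any tumour. Sites of one gene in one tumour share cells and partly reads, so they are not independent measurements.

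**Figure D3:**
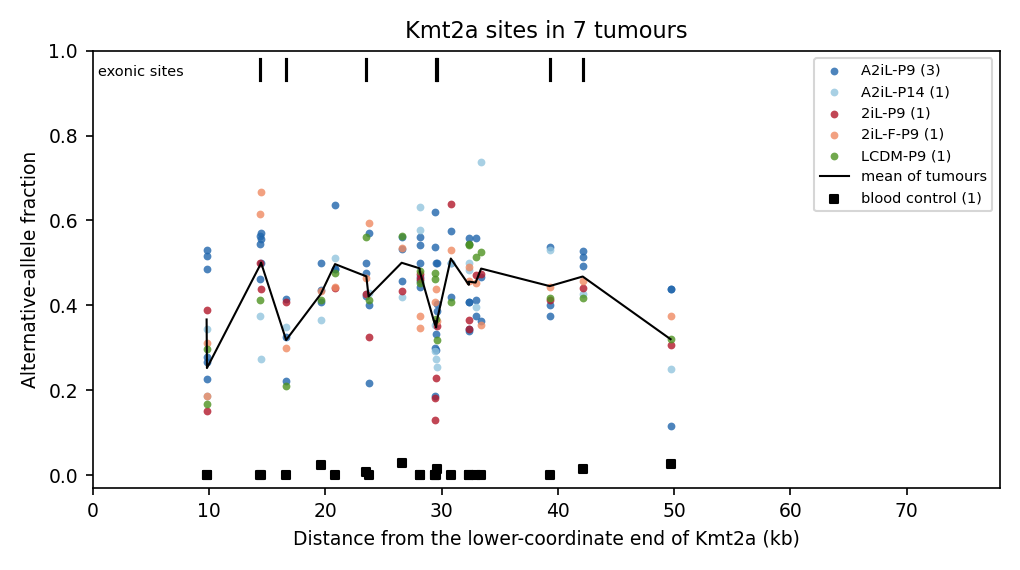
Alternative-allele fraction (vertical axis, no unit) at the 24 Kmt2a sites of 7 tumours, by distance from the lower-coordinate end of the gene in kb. Coloured points are tumours by group (number of tumours in parentheses), the line joins the means, black squares are the blood control and ticks at the top mark the 7 exonic sites; site means run from 0.252 to 0.510 and the control stays near 0.

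The Kmt2a sites, pooled within each tumour, lay near the level of other dbSNP sites on the chromosome in most tumours. The pooled fraction was 0.429, 0.420 and 0.482 in the A2iL-P9 tumours, 0.397 in 2iL-P9, 0.436 in 2iL-F-P9, 0.436 in LCDM-P9 replicate 1 and 0.410 in A2iL-P14 (mean 0.430 ± 0.0269, SD, n = 7). Other dbSNP calls on chromosome 9 had median fractions of 0.429 to 0.438 in these tumours. The like measure for Kmt2a, the median of its site fractions, was 0.407 to 0.508. The Wilson interval of the pooled fraction lay above the chromosome median in A2iL-P9 replicate 3 (0.449 to 0.515 against 0.436). In 2iL-P9 it lay below (0.368 to 0.428 against 0.434), and in the other tumours it held that median. A2iL-P9 replicate 3 was the highest and 2iL-P9 the lowest, each a single tumour, and their difference was not tested.

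**Figure D4:**
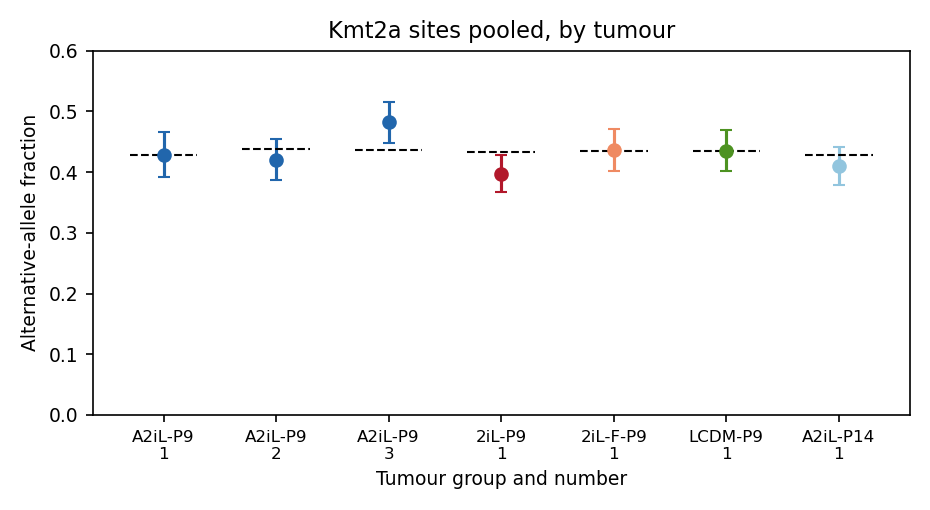
Pooled alternative-allele fraction of the Kmt2a sites (vertical axis, no unit) in each of 7 tumours, as points with Wilson 95% intervals. Dashed lines are the median fraction of the other dbSNP calls on chromosome 9 of that tumour; the points lie between 0.397 and 0.482.

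The Kmt2a sites lay inside a dense run of dbSNP sites on chromosome 9. With gaps of at most 0.5 Mb allowed, the run spanned chr9:44136441-46242873 (2.11 Mb) and held 449 sites in 52 genes, or 42.0% of the 1069 dbSNP sites of the chromosome. The gaps on either side were 1.45 Mb and 4.25 Mb. LCDM-P9 replicate 2 had no call in the run and 6 calls on the whole chromosome, so its lack of Kmt2a sites was shared by the neighbouring genes.

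**Figure D5:**
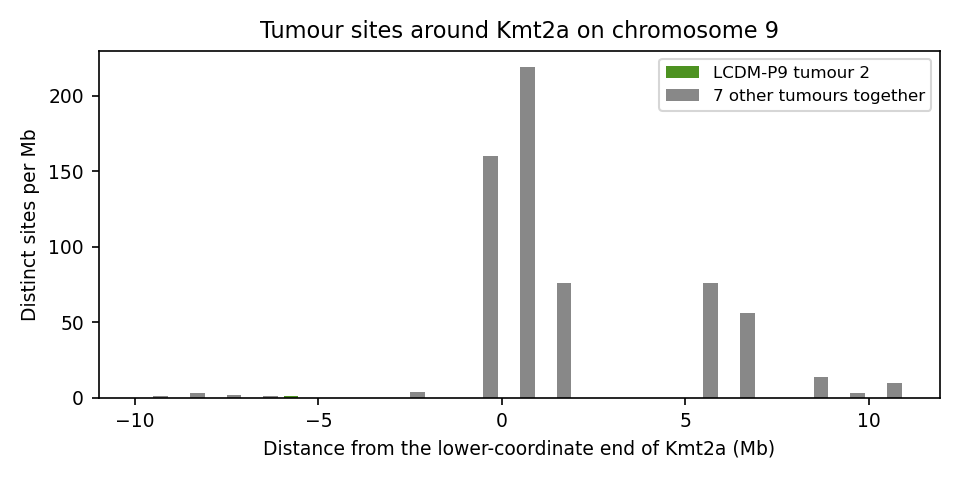
Distinct tumour sites per Mb (vertical axis) within about 10 Mb of Kmt2a on chromosome 9, by distance from the lower-coordinate end of the gene in Mb. Green bars are LCDM-P9 replicate 2 and grey bars the other 7 tumours together; the grey bars peak next to Kmt2a, where the green count is 0.

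No other calls of LCDM-P9 replicate 2 lay near 6 of the 7 genes. Within 1 Mb of each gene, other sites numbered 0 in LCDM-P9 replicate 2 against 364 in the other 7 tumours around Kmt2a, 0 against 69 around Kmt2c and 0 against 20 around Eed. Around Nsd1 the order was turned, with 12 sites in LCDM-P9 replicate 2 against 2 in the other tumours. Around Dnmt3b there were 0 against 16, around Kdm5c 0 against 1, and around Atrx none in either. At Nsd1 the 12 neighbouring sites all had dbSNP identifiers, unlike the Nsd1 site itself.

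Kmt2c had a synonymous tumour site, F4569F in exon 52 (chr5:25284233, rs33230096), and an intronic one (chr5:25377006, rs45731654). At F4569F alternative reads numbered 36 of 68, 26 of 55 and 33 of 71 in the A2iL-P9 tumours, 39 of 92 in 2iL-P9, 26 of 66 in 2iL-F-P9, 34 of 78 in LCDM-P9 replicate 1 and 34 of 71 in A2iL-P14. Pooled this was 228 of 501 reads (0.455, interval 0.412 to 0.499), against 0 of 67 in blood. The intronic site had 72 of 159 reads (0.453), against 0 of 32 in blood, with fractions from 0.286 to 0.70 at 15 to 31 reads. The Eed site, intronic and in a SINE repeat (chr7:89971675, rs47758367), had 147 of 314 reads (0.468), against 0 of 37 in blood, with fractions from 0.388 to 0.565.

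The fractions of these dbSNP sites were compared between tumour groups where every tumour had a call. Over all 7 P9 tumours 374 sites could be tested, with 11 at an unadjusted p under 0.05 in the exact permutation test. None passed after adjustment (0.0%), but with a smallest p of 0.0286 no single site could. No member site was among them, because LCDM-P9 replicate 2 listed none of these dbSNP sites. Without that tumour, 22 member sites were called in 3 A2iL-P9 tumours and 3 other P9 tumours, a design whose smallest exact p is 0.1, and the lowest adjusted p was 1.0. The difference was positive at 15 of the 22 and negative at 7, with a median of 0.0191 against 0.00413 over all 7781 sites. The groups did not overlap at 5 of the 22 (all higher in A2iL-P9), against 722 of 7781 sites in all (9.28%). Of these 5, 4 were in Kmt2a, where they share the tumours and the gene.

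The site with the largest of these differences was chr9:44813181 in Kmt2a, at 0.358 ± 0.149 in A2iL-P9 and 0.168 ± 0.0188 in the other P9 tumours (SD, n = 3 each), on 15 to 24 reads a tumour. Kmt2c F4569F averaged 0.489 ± 0.0352 in A2iL-P9 and 0.418 ± 0.0216 in the others. Pooled over the 19 Kmt2a sites the fractions were 0.444 ± 0.0307 in A2iL-P9 and 0.426 ± 0.0164 in the others (SD, n = 3 each), a difference of 0.0180, within the spread. Without A2iL-P9 replicate 3 that difference was 0.000321.

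Nsd1, which dimethylates lysine 36 of histone H3, had the one member site without a dbSNP identifier in the tumours. It was a missense change in exon 5, G950R (coding change G2848A, chr13:55247126), outside repeats and duplications. LCDM-P9 replicate 2 had 38 of 98 alternative reads (0.388, interval 0.297 to 0.487) at a base quality of 36, against 0 of 76 in blood, which allows up to 3.95%. The other 7 tumours had no call there. The median fraction of the 67 dbSNP calls on chromosome 13 of this tumour was 0.441, inside the interval of the Nsd1 site.

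Of the 3634 calls of LCDM-P9 replicate 2, 183 (5.04%) had no dbSNP identifier, and 155 of these were in no other tumour. Of the 155, 42 changed a protein, and 30 of those lay outside repeats and duplications with no alternative control read. Their fractions ran from 0.043 to 1.0 with a median of 0.169, and Nsd1 was above that median, with 19 of the 30 below it. The nearest other calls in this tumour were in Uimc1, 218.69 kb to the lower-coordinate side with a fraction of 0.255, and in Slc34a1, 153.41 kb to the other side with 0.222. The 12 other sites of this tumour within 1 Mb of Nsd1 had a median fraction of 0.4205.

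Among 126 genes of DNA methylation and chromatin, which include the 7, 13 had an ESC site, 15 sites in all. The 7 were chosen for their calls, which raises this count. The ESC lists as a whole had sites in 1740 genes, and whether the 126 held more or fewer than other genes was not tested. In the other 119 genes, 7 had 8 ESC sites, of which 1 changed the protein: C310F in Ezh1, a methyltransferase of Polycomb repressive complex 2, in 2iL replicate 3 and 2iL-F replicate 5 at fractions of 0.387 to 0.474, against 0 of 27 reads in MEF. No other DNA methyltransferase or partner in the list of 9 had an ESC site. None of the 17 histone demethylases other than Kdm5c had one, and none of the 15 acetyltransferases and deacetylases did. These short lists were not set against a share over all genes, so the absence of sites is a description.

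In the tumours 19 of the other 119 genes had 52 sites, of which 4 changed the protein. Tumour lists as a whole held 15030 sites, and 3675 genes had one. The 119 genes were not tested against these. Ep400 I2027S, Setd1b A1222V and Trim28 P542L, a remodeller, a histone H3 lysine 4 methyltransferase and a co-repressor, were each listed in 7 tumours with a dbSNP identifier, at fractions from 0.345 to 0.60. Uty D343H, a Y-linked relative of the lysine 27 demethylases, was listed in LCDM-P9 replicate 2 alone, with 41 of 43 reads and a dbSNP identifier, against 0 of 15 in blood. Dnmt3a, the other de novo methyltransferase, had 5 tumour sites, and none changed the protein. Of the 6 protein-changing tumour sites in the 126 genes, the Nsd1 site was the one without a dbSNP identifier.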

How the data were processed

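The 18 deposited lists (10 ESC, 8 tumour) were used; the other 3 of 21 samples, MEF and 2 blood samples, had no list analysed here. BWA, SAMtools, Picard and the mm10 build are named, with no version, in the submitters' processing notes, and which SNV caller made the lists is not stated there. Each row deposited by the authors, per the file headers, gives read counts per allele, depth, base quality and the alternative-allele fraction for library and control, with gene, consequence, repeat and dbSNP annotation. Fractions were recomputed as alternative reads over reads of both alleles and differed from the deposited fraction by at most 0.0005; depth exceeded those reads by at most 2, in 17 of 207 member calls. For the tumours the design text speaks of ATAC-seq but the title of exome sequencing, so their assay is not settled. The header names of the lists recorded as 2iL-P9 and 2iL-F-P9 differ from the labels, and an exchange of both is not settled. Gene bounds came from RefSeq (GRCm38.p6). No read level data were used, so a missing call is not a measured 0.

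Exact permutation tests with Benjamini-Hochberg adjustment at 0.05 ran over all sites called in every compared library, and were tested on simulated data. Named sites were every ESC site and every tumour site that changes a protein or lacks a dbSNP identifier, with synonymous sites and the highest and lowest Kmt2a means as examples. The members and lists were chosen with earlier results of these data known. Alternatives were minimum depth, alternative reads, base quality, sequence class, control reads, a logit scale, a replicate block and leaving out libraries. Python 3.11.15, pandas 2.3.3, NumPy 2.4.6, SciPy 1.17.1 and Matplotlib 3.10.9 were used.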

Additional observations from a re-analysis of the deposited data

How the results depend on the processing

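The 7 ESC member sites fell to 2 with at least 20 reads, to 2 with at least 5 alternative reads and to 4 outside repeats and duplications. The 23 ESC calls fell to 11 and 12 under the first 2 of these. The tumour sites (28) and calls (184) stayed within 1.5 times under all 5 alternatives. The Dnmt3b site did not pass after adjustment in any of the 15 alternatives of either test, with an adjusted p of 0.753 to 0.982 among media and 0.843 to 0.999 for the MEK inhibitor. In none of these settings was the smallest possible p low enough for a single site to pass. Leaving out one ESC library at a time gave exact permutation p-values of 0.289 to 0.945 among media. For the MEK inhibitor the exact permutation p-values were 0.0357 to 0.714, with differences of −0.0390 to −0.00790. With the label number as a replicate block, the exact permutation p was 0.717 among media and 0.360 for the inhibitor. Fractions of same-numbered libraries did not deviate together over 636 sites (10 pairs, r from −0.117 to 0.0788). Whether these libraries share a culture or a run cannot be told from this. The Kmt2a pooled difference between A2iL-P9 and other P9 tumours, an alternative chosen after seeing the data, ranged from 0.000321 to 0.0279 when one tumour was left out. In the tumour test the count passing after adjustment was 0.0 without LCDM-P9 replicate 2, which the smallest exact p of 0.1 fixed in advance. Settings that kept that tumour gave no value for a member site, since no member site was called in all 7 P9 tumours. Depth and alternative reads limit the single-library ESC sites.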
